A study of Mus musculus with 8 samples.

Results

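Interferon-stimulated genes are genes that cells switch on when an interferon reaches its receptor, and 43 of them were followed here by name across the 4 groups of the study. They were 43 of the 55358 genes in the deposited tables, and all 43 were among the 13693 genes that reached 1 FPKM (fragments scaled to transcript length and to the fragments of the library) in at least 2 of the 8 libraries. The RNA came from mouse embryonic fibroblasts, cells of connective tissue cultured from embryos, in 4 groups of 2 libraries each (n = 2): Arid5a-/- (KO) with IL-6, Arid5a-/- without IL-6, wild type (WT) with IL-6, and WT without IL-6. IL-6 was given at 100 ng/ml, and all groups were kept for 24 h. Arid5a encodes a protein that binds RNA and protects some inflammatory messages from decay, among them that of IL-6, and the series looked for long non-coding RNAs of the IL-6 and Arid5a pathway. The labels give no strain, embryo, sex, clone or passage, so a difference between the genotypes cannot be told apart from a difference between the cell isolates. Whether both libraries of a group had a culture of their own is not labelled either, so the p-values reflect spread between libraries that may be technical only.

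As background, type I interferons bind the receptor chains IFNAR1 and IFNAR2, and the kinases JAK1 and TYK2 then phosphorylate factors of the STAT family. These, with STAT2 among them, join IRF9 and bind interferon-stimulated response elements (ISRE) in promoters, while STAT pairs formed after interferon gamma bind gamma-activated sequences (GAS). Fibroblasts are known to hold a low standing level of many such genes through small amounts of interferon beta, without infection. IL-6 signals through gp130 and JAK1, mainly to STAT3.

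In KO cells most of the 43 interferon-stimulated genes were lower than in WT cells, with and without IL-6. The 43 were chosen with earlier results of these data known. Levels below are FPKM per gene, summed over its transcripts, and changes are log2 differences of FPKM + 1 with their standard error, which understate the fold of low genes. A change passed at an adjusted p below 0.05 (limma, Benjamini-Hochberg over the 13693 genes). Without IL-6, 36 of the 43 genes were lower in KO than in WT cells, 4 were higher and 3 did not pass, in a comparison in which 34.5% of all genes tested passed as lower, 36.4% as higher and 71.0% in either direction. With IL-6, 37 were lower, 5 higher and 1 did not pass, against 34.8% lower, 36.9% higher and 71.7% in either direction among all genes. The median change of the 43 genes was -1.12 without IL-6 and -1.002 with IL-6, beside 0.01 for all genes tested in each comparison. Without IL-6 the libraries of 37 genes lay all lower and those of 5 all higher in KO than in WT, with no overlap, and with IL-6 the counts were again 37 and 5. Among all genes tested 41.7% lay lower and 43.3% higher without overlap in the absence of IL-6, and 41.9% lower and 43.9% higher in its presence. The same 36 genes passed as lower in both genotype comparisons, and 4 passed as higher in both. These genotype comparisons share no library, but they share the cell isolates. In bulk RNA, fewer cells that express a gene and less of its RNA per cell cannot be told apart.

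**Figure D1:**
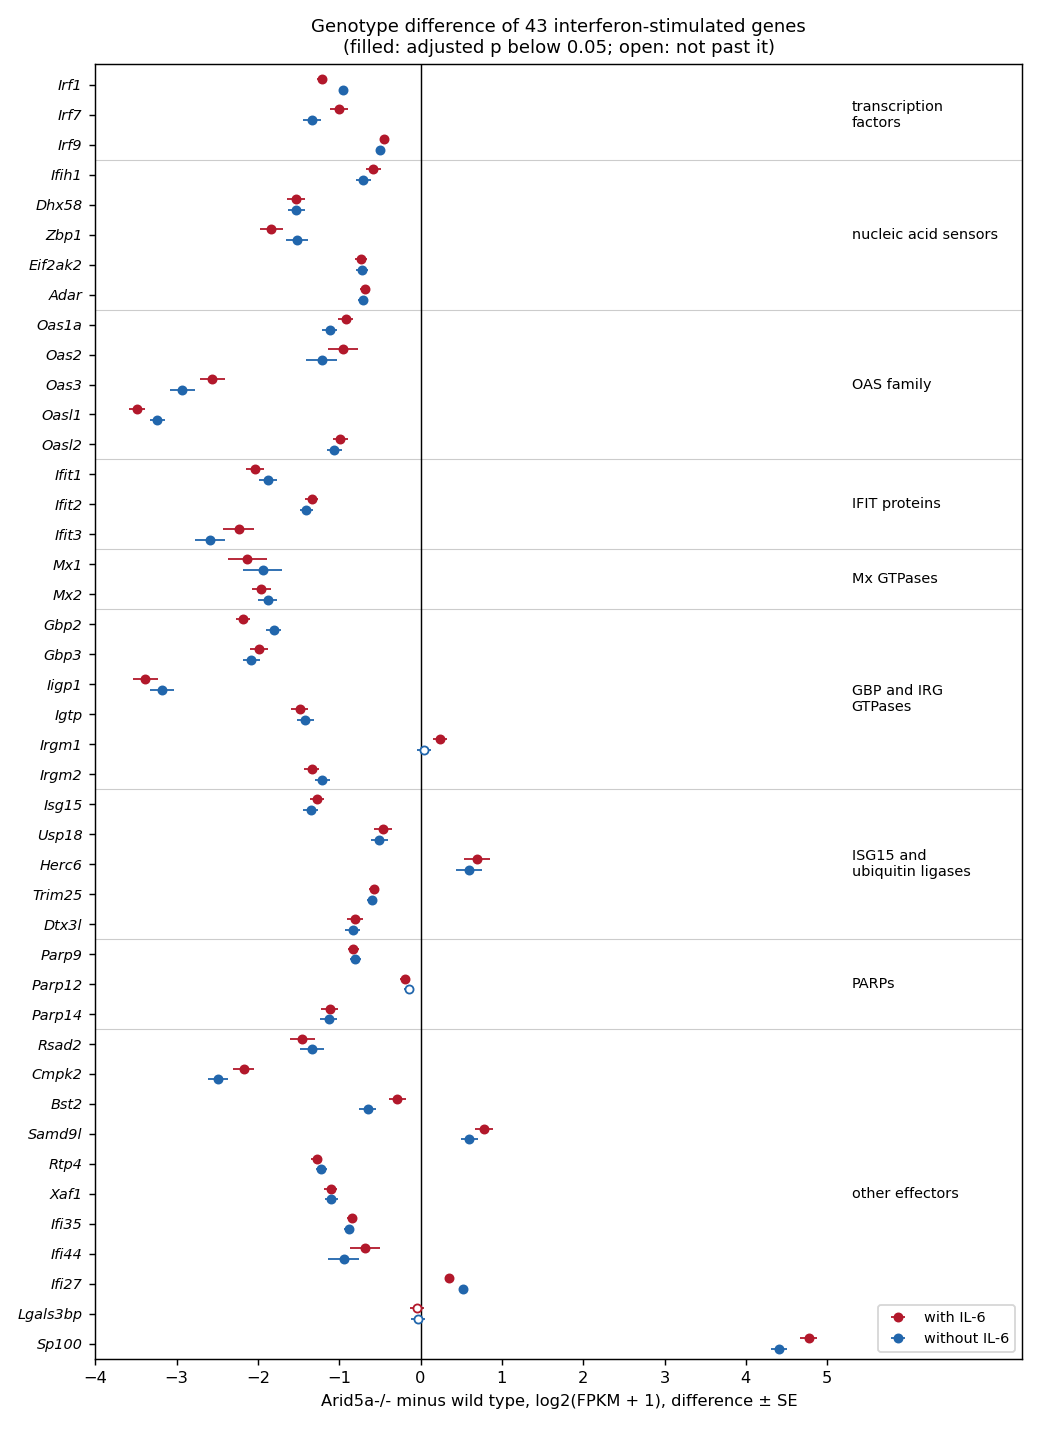
Log2 difference of FPKM + 1 between KO and WT cells (x axis, with standard error) for each of the 43 genes, grouped by role, with IL-6 in red and without IL-6 in blue (2 libraries a group). Most points lie left of 0 in both conditions, Oasl1 and Iigp1 farthest, and Sp100 lies far to the right at 4.77 with IL-6 and 4.41 without.

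Several facts of the libraries touch every genotype difference given here. Arid5a stood at 5.51 and 6.85 FPKM in KO libraries without IL-6, against 18.7 and 15.9 in WT without IL-6. With IL-6 it stood at 8.47 and 8.15 FPKM in KO libraries and 30.9 and 31.0 in WT libraries, so the KO libraries were lower but kept a signal of the targeted gene. The labels do not say which exons are missing, so a transcript that lacks them could still be counted. Other features also moved with the genotype. Xist, the RNA of the inactive X chromosome, stood at 58.7 and 55.2 FPKM in untreated KO libraries and at under 0.01 in all 4 WT libraries. All 4 Y-linked genes examined passed as lower in KO, beside 34.5% of all genes tested. None of them exceeded 0.0651 FPKM in a KO library or lay below 9.92 in a WT library. By these levels the KO cells were female and the WT cells male, so genotype and sex cannot be told apart here. The summed level of 4 epithelial markers was 20.9 to 21.2 FPKM in untreated KO libraries and 1.52 to 1.69 in untreated WT libraries, with Krt8, Krt18 and Cdh1 higher in KO. The remaining marker, Epcam, overlapped, at 0.617 and 0.636 FPKM in untreated KO and 0.587 and 0.662 in untreated WT libraries. The 5 endothelial markers summed to 10.8 to 11.2 FPKM in untreated KO libraries and 0.168 to 0.181 in untreated WT libraries. Tek and Kdr carried the KO sum, while Pecam1, Cdh5 and Emcn stayed at or below 0.105 FPKM in every library. The 8 macrophage markers summed to 4.04 to 4.08 FPKM in untreated KO libraries and 19.0 to 19.3 in untreated WT libraries, with Cd14 the largest of them in both. Of 9 fibroblast markers, 3 passed as higher and 5 as lower in untreated KO cells, beside 36.4% and 34.5% of all genes tested. A group mean of at least 1 FPKM was reached by 8 of the 9 in KO and by all 9 in WT. The part of these differences in the results was not tested. Of the macrophage markers only Cd14 and Cd68 reached a group mean of 1 FPKM. Cd68 was at 1.53 and 1.43 FPKM in KO and 2.44 and 2.23 in WT libraries without IL-6. The others were low: Csf1r did not exceed 0.271 FPKM, Fcer1g 0.422, Lyz2 0.713 and Tyrobp 0.119 in any library. Csf1r went against the sum, at 0.262 and 0.230 FPKM in KO and 0.0601 and 0.038 in WT libraries without IL-6. The pan-leukocyte marker Ptprc did not exceed 0.00556 FPKM and the T cell marker Cd3e 0.0291, and Adgre1, Ms4a1 and Siglech were listed at 0 in all 8 libraries. The libraries held 36500000 to 47600000 fragments, as read from the steps of their low values.

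Among the transcription factors, Irf1, Irf7 and Irf9 were all lower in KO cells. Irf7, the amplifier of type I interferon production, stood at 79.9 and 82.0 FPKM in KO and 214 and 199 in WT libraries without IL-6, a difference of -1.34 ± 0.11 (adjusted p = 2.26e-05). With IL-6 its levels were 81.1 and 72.1 FPKM in KO and 175 and 136 in WT libraries (-1.002 ± 0.11, adjusted p = 0.00011). All 4 KO libraries thus lay below all 4 WT libraries, and the WT libraries with IL-6 lay below those without. Irf1, a factor that interferon gamma induces, was at 39.9 and 39.3 FPKM in KO and 77.8 and 77.1 in WT libraries without IL-6 (-0.95 ± 0.05, adjusted p = 2.5e-06). With IL-6 it was at 38.9 and 41.0 FPKM in KO and 98.9 and 89.4 in WT libraries (-1.22 ± 0.05, adjusted p = 6.1e-07). The 4 KO libraries of Irf1 spanned a narrow band in either condition, while its WT libraries were higher with IL-6 than without. Irf9, the DNA-binding part of the factor that reads ISREs, differed least of the 3. It was at 64.2 and 63.9 FPKM in KO and 91.6 and 90.1 in WT libraries without IL-6 (-0.50 ± 0.04, adjusted p = 1.9e-05), and the groups did not overlap.

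**Figure D2:**
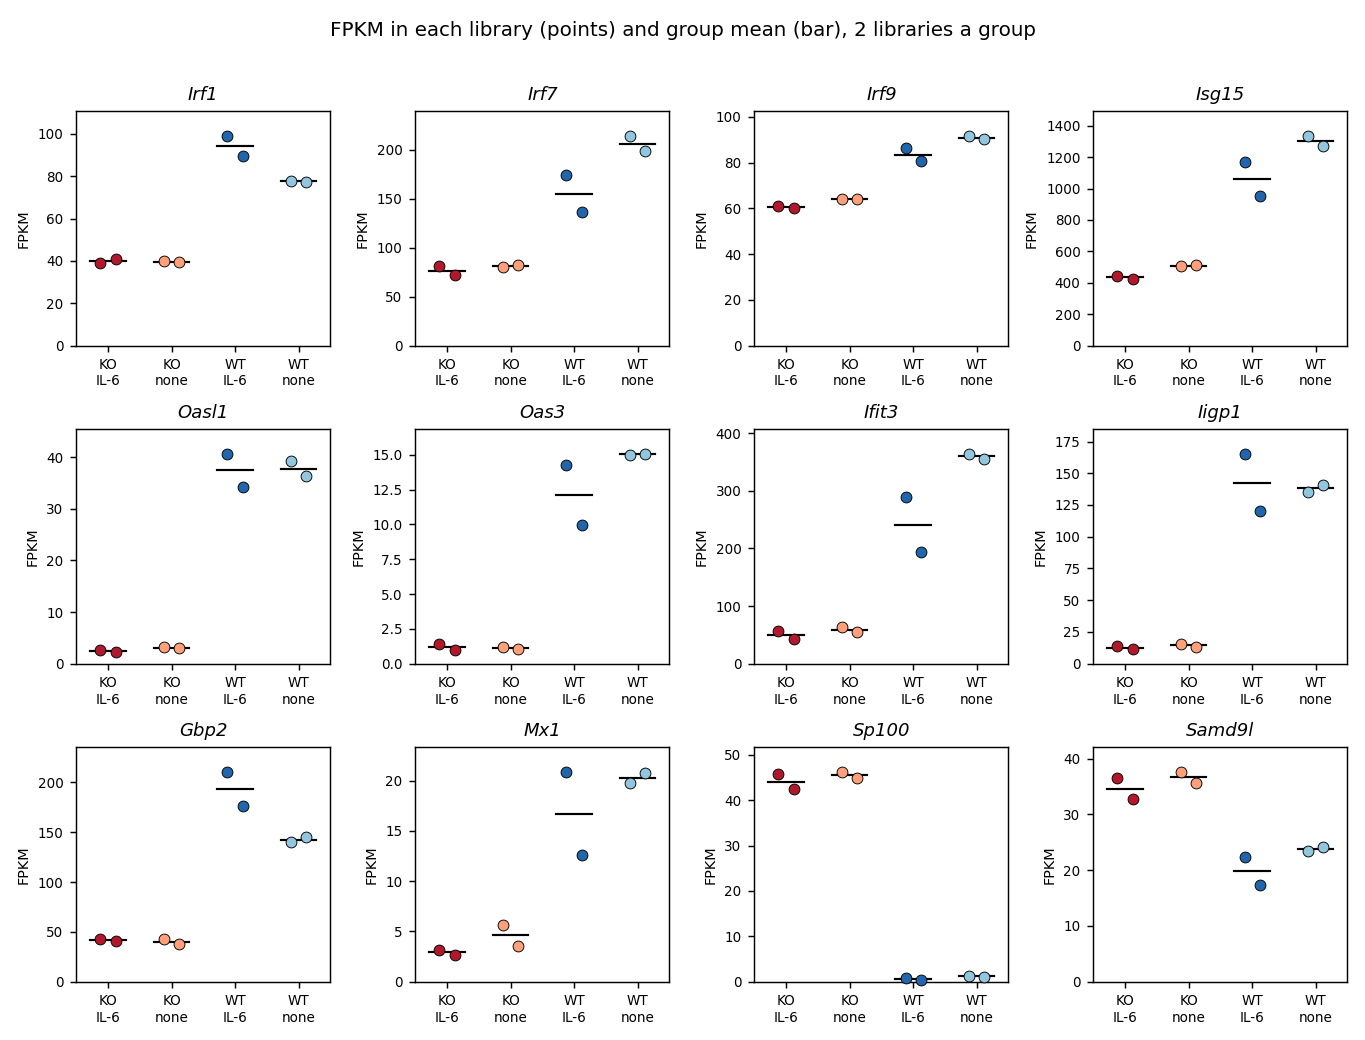
FPKM (y axis, linear, from 0) of 12 genes in each library (points) and the mean of each group (bar), for KO with IL-6, KO without, WT with IL-6 and WT without. The KO libraries lie below every WT library in 10 of the panels, and above them for Sp100 and Samd9l.

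The nucleic acid sensors and double-stranded RNA binding proteins Ifih1, Dhx58, Zbp1, Eif2ak2 and Adar were all lower in KO cells in both conditions. Their differences without IL-6 ran from -1.53 for Dhx58, which tunes RIG-I-like sensing, to -0.70 for Ifih1, the sensor MDA5. Eif2ak2, the kinase PKR, differed by -0.72 ± 0.07 and the RNA-editing enzyme Adar by -0.71 ± 0.06 without IL-6.

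All 5 genes of the 2'-5'-oligoadenylate synthetase (OAS) family were lower in KO cells, and Oasl1 and Oas3 were among the 3 largest falls without IL-6. Oasl1, an OAS-like protein known in mouse to restrain translation of Irf7, stood at 3.19 and 3.03 FPKM in KO and 39.2 and 36.3 in WT libraries without IL-6 (-3.24 ± 0.10, adjusted p = 7.12e-08). With IL-6 it stood at 2.63 and 2.22 FPKM in KO and 40.6 and 34.2 in WT libraries (-3.49 ± 0.10, adjusted p = 4.46e-08). The KO level was 8.24% of the WT level without IL-6 and 6.48% with it. Oas3, which makes 2'-5'-linked oligoadenylates, was at 1.18 and 1.04 FPKM in KO and 15.0 and 15.0 in WT libraries without IL-6 (-2.93 ± 0.16, adjusted p = 1.75e-06). With IL-6 the levels of Oas3 were 1.40 and 1.004 FPKM in KO and 14.2 and 9.98 in WT libraries (-2.56 ± 0.16, adjusted p = 3.47e-06). The second WT library with IL-6 was the lowest of the WT libraries for both genes, and still above all KO libraries. Oas1a, Oas2 and Oasl2 kept 41.3% to 47.8% of the WT level without IL-6. Oas1a has near-identical neighbours in the mouse genome, and how the authors' counting split fragments between them is not given in the sources used here.

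The 3 IFIT genes were lower in KO cells as well. Ifit3 was at 63.5 and 54.7 FPKM in KO and 363 and 356 in WT libraries without IL-6 (-2.59 ± 0.19, adjusted p = 1.08e-05). With IL-6 Ifit3 was at 56.2 and 43.4 FPKM in KO and 289 and 193 in WT libraries (-2.23 ± 0.19, adjusted p = 2.35e-05). The KO level was thus 16.4% and 20.7% of the WT level. Ifit3 shares sequence with its neighbour Ifit3b, which also passed as lower in KO (-2.69 without IL-6). Ifit1 stood at 86.9 and 74.8 FPKM in KO and 368 and 301 in WT libraries with IL-6 (-2.03 ± 0.11, adjusted p = 1.61e-06). Ifit2 kept 36.9% of the WT level without IL-6.

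Both Mx genes, which encode dynamin-like GTPases that block viral replication, were low in KO cells. Mx1 was at 5.67 and 3.58 FPKM in KO and 19.7 and 20.7 in WT libraries without IL-6 (-1.94 ± 0.24, adjusted p = 0.0002). With IL-6 Mx1 was at 3.17 and 2.70 FPKM in KO and 20.8 and 12.6 in WT libraries (-2.13 ± 0.24, adjusted p = 0.000112). For Mx1 all 4 KO libraries lay below all 4 WT libraries, the lowest of which was the second with IL-6. Mx2 was at 9.17 and 7.88 FPKM in KO and 34.3 and 33.7 in WT libraries without IL-6 (-1.88 ± 0.12, adjusted p = 4.18e-06). Mx2 is annotated as a polymorphic pseudogene in the GENCODE M21 annotation.

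Some guanylate-binding proteins (GBP) and immunity-related GTPases (IRG) attack the vacuoles of intracellular parasites and bacteria. Of the 6 genes of these families followed here, 5 were lower in KO cells. Iigp1 stood at 15.4 and 13.3 FPKM in KO and 135 and 141 in WT libraries without IL-6 (-3.18 ± 0.15, adjusted p = 9.23e-07). With IL-6 it stood at 13.8 and 11.5 FPKM in KO and 165 and 120.2 in WT libraries (-3.38 ± 0.15, adjusted p = 6.2e-07). The highest KO library of Iigp1 lay far below the lowest WT library. Gbp3 was at 49.0 and 49.6 FPKM in KO and 211 and 211 in WT libraries without IL-6 (-2.08 ± 0.11, adjusted p = 1.6e-06). Gbp2 was at 42.6 and 40.8 FPKM in KO and 210.3 and 177 in WT libraries with IL-6 (-2.18 ± 0.09, adjusted p = 3.89e-07). Igtp and Irgm2, whose annotated spans overlap on the same strand, kept 37.0% and 42.6% of the WT level without IL-6, values that are uncertain because of the overlap. Irgm1 stood apart from its relatives. Its levels without IL-6 were 176 and 167 FPKM in KO and 166 and 166 in WT libraries, a difference of 0.04 ± 0.09 that did not pass (adjusted p = 0.7). With IL-6 it was at 169 and 155 FPKM in KO and 151 and 123 in WT libraries, a rise of 0.24 ± 0.09 (adjusted p = 0.045). That call ended, among other settings, with no filter (adjusted p = 0.119) and with only the groups compared (adjusted p = 0.0983). Without the second WT library with IL-6 the rise was 0.09.

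The ubiquitin-like modifier Isg15 was the most abundant of the 43 genes in WT cells and is given here for that reason, seen in the data. It stood at 507 and 512 FPKM in KO and 1334 and 1269 in WT libraries without IL-6 (-1.35 ± 0.09, adjusted p = 5.34e-06). With IL-6 it stood at 446 and 426 FPKM in KO and 1168 and 951 in WT libraries (-1.27 ± 0.09, adjusted p = 7.2e-06). The groups were far apart in both conditions. Usp18, which removes Isg15 from proteins, and the ligases Trim25 and Dtx3l were lower in KO cells by smaller amounts, -0.51 for Usp18, -0.60 for Trim25 and -0.84 for Dtx3l without IL-6. Herc6, the main mouse ligase that attaches Isg15, went the other way. It was at 26.3 and 22.2 FPKM in KO and 14.8 and 16.7 in WT libraries without IL-6 (0.59 ± 0.16, adjusted p = 0.0119), and this call ended without the first WT (adjusted p = 0.0691) or the first KO library of that pair (adjusted p = 0.075). With IL-6 Herc6 was at 23.1 and 19.1 FPKM in KO and 14.9 and 10.7 in WT libraries (0.69 ± 0.16, adjusted p = 0.00551).

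The poly(ADP-ribose) polymerases Parp9 and Parp14 were lower in KO cells in both conditions, at 56.8% and 44.2% of the WT level without IL-6. Parp12 differed by -0.14 without IL-6 and did not pass (adjusted p = 0.0734). With IL-6 it passed at -0.19 (adjusted p = 0.0271). The call ended with libraries brought to equal total FPKM (-0.095, adjusted p = 0.247) or with quantile normalization (-0.16, adjusted p = 0.0563). It also ended with no filter (adjusted p = 0.0638) and with only the groups compared (adjusted p = 0.0644). The difference was -0.10 without the first WT library with IL-6 and -0.15 without the second KO library with IL-6. Parp9 and its partner Dtx3l overlap on opposite strands, and no source used here says whether counting used strand, so their values are uncertain.

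Among the other effectors, Cmpk2, a mitochondrial nucleotide kinase next to Rsad2 in the genome, was at 7.67 and 6.41 FPKM in KO and 44.7 and 43.3 in WT libraries without IL-6 (-2.49 ± 0.13, adjusted p = 1.31e-06). With IL-6 Cmpk2 was at 6.89 and 5.90 FPKM in KO and 36.5 and 28.7 in WT libraries (-2.18 ± 0.13, adjusted p = 2.61e-06). Rsad2 (viperin), Rtp4, Xaf1, Ifi35 and Ifi44 kept 38.7% to 53.9% of the WT level without IL-6, and all passed as lower. Bst2 (tetherin), a surface protein that holds budding virus, was at 747 and 778 FPKM in KO and 1229 and 1169 in WT libraries without IL-6 (-0.65 ± 0.10, adjusted p = 0.000825). In the presence of IL-6 Bst2 was at 714 and 661 FPKM in KO and 945 and 742 in WT libraries, a difference of -0.29 ± 0.10 (adjusted p = 0.0394). That call ended, among other settings, with libraries brought to equal total FPKM (-0.19, adjusted p = 0.153) or with quantile normalization (-0.18, adjusted p = 0.155). Without the first WT library with IL-6 the difference shrank to -0.11. The second WT library with IL-6 lay close to the KO libraries for Bst2. Lgals3bp did not pass in either comparison (-0.03 without and -0.04 with IL-6), and its groups overlapped.

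Sp100, a component of PML nuclear bodies, had the largest difference of the 43 genes, and it was higher in KO cells. It stood at 46.2 and 44.9 FPKM in KO and 1.24 and 1.15 in WT libraries without IL-6 (4.41 ± 0.10, adjusted p = 2.29e-08). With IL-6 it stood at 45.7 and 42.4 FPKM in KO and 0.840 and 0.473 in WT libraries (4.77 ± 0.10, adjusted p = 1.41e-08). Of 7 Sp100 transcripts above 1 FPKM in KO, none exceeded 0.328 FPKM in any WT library, so the whole gene was low there. Its neighbour Sp110 was listed at 0 in all 4 WT libraries and stood at 7.25 and 7.56 FPKM in untreated KO libraries. Both lie on chromosome 1 of GRCm38, Sp110 at chr1:85576899-85598817 on the minus strand and Sp100 at chr1:85649988-85709998 on the plus strand, the chromosome that also carries Arid5a at chr1:36307733-36324029. Samd9l, an antiviral endosomal protein, was at 37.6 and 35.7 FPKM in KO and 23.5 and 24.2 in WT libraries without IL-6 (0.60 ± 0.11, adjusted p = 0.00151). With IL-6 Samd9l was at 36.5 and 32.7 FPKM in KO and 22.3 and 17.4 in WT libraries (0.78 ± 0.11, adjusted p = 0.000349). Ifi27 was at 227 and 236 FPKM in KO and 165 and 156 in WT libraries without IL-6 (0.52 ± 0.04, adjusted p = 2.17e-05), and its rise with IL-6 was 0.35 ± 0.04 (adjusted p = 0.000186). In all 3 genes the KO libraries lay above the WT libraries.

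Within some genes the transcripts differed in how far they were lower. Adar-203 was at 12.9 and 13.5 FPKM in KO and 32.5 and 33.4 in WT libraries without IL-6, or 40.1% of WT, while Adar-201 kept 77.7%. Adar-201 and Adar-203 are annotated with the same start and differ at their 3′ end. Adar-202, which starts farther upstream, was at 5.24 and 4.69 FPKM in KO and 3.69 and 3.58 in WT libraries without IL-6, so that it lay above WT. Gbp3-202 kept 11.5% of the WT level and Gbp3-203 kept 34.0%. Irf7-212, a form annotated for nonsense-mediated decay, stood at 0.429 and 0 FPKM in KO and 7.79 and 9.98 in WT libraries without IL-6, while Irf7-201, a protein-coding form, kept 40.9%. For Oasl2 the share kept was 28.8% for Oasl2-204 and 73.3% for Oasl2-203, both retained introns. These are the authors' estimates of how fragments divide among overlapping transcripts, given without a test.

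The promoters of genes that were lower in KO are shown for the elements through which interferon acts. RefSeq promoter windows (build GRCm38.p6) were found for 32 of the 43 genes, and the 250 bases before each start were searched on both strands for the ISRE core GAAANNGAAA (TTTCNNTTTC on the other strand) and for the GAS palindrome TTCNNNGAA. An ISRE core stood in 12 of the 32 genes (37.5%) and in 3.46% of the 27025 genes of the table. A GAS match stood in 7 of the 32 genes (21.9%) and in 8.13% of all genes. Bst2 has 2 overlapping ISRE cores, the first of which overlaps its GAS match. In untreated KO cells 36 of all 43 genes passed as lower and 4 as higher, beside 34.5% and 36.4% of all genes tested. Of the 12 genes with an ISRE core, 11 passed as lower in untreated KO cells, with a median change of -1.38, and Irgm1 did not pass. Of the 20 without one in this window, 15 were lower and 3 higher, with a median of -0.78. No test was made of this difference, and a match of letters is not a binding site. The stretches below, read 5′ to 3′ on the gene's strand with 10 bases of flank, show these matches in capitals. They were picked as examples from the Isg15, IFIT, OAS, GBP and IRG groups and from the other effectors (Rsad2 and Bst2), with Irf1 as an example of GAS alone.
Isg15, chr4:156200865-156200906, minus strand: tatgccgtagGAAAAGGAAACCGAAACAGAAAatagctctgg
Ifit1, chr19:34640775-34640823, plus strand: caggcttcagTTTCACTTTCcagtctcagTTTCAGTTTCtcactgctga
Ifit3, chr19:34583363-34583426, plus strand: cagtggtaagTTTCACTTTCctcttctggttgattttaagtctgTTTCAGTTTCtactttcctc
Oas3, chr5:120777715-120777744, minus strand: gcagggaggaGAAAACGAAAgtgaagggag
Rsad2, chr12:26456553-26456582, minus strand: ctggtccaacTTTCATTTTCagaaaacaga
Gbp2, chr3:142620594-142620623, plus strand: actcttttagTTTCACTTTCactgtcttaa
Igtp, chr11:58199501-58199541, plus strand: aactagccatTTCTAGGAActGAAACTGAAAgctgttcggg
Irgm2, chr11:58214892-58214932, plus strand: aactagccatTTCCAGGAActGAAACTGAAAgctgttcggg
Bst2, chr8:71537577-71537618, minus strand: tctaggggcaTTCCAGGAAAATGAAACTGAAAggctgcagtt
Irf1, chr11:53769914-53769942, plus strand: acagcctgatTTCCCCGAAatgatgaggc
Isg15 holds 3 overlapping ISRE cores in a row, and Ifit1 and Ifit3 hold 2 separate ones each. In Igtp and Irgm2 a GAS match and an ISRE core stand 2 bases apart in stretches that are the same at 40 of 41 positions (T14C, counted from 1 at the 5′ end, Igtp first). Irf1 has a GAS match and no ISRE core in this window. Oasl1 and Cmpk2, which were among the largest differences, and Sp100 have neither motif in their windows. For Iigp1 and Mx1 no window was found.

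**Figure D3:**
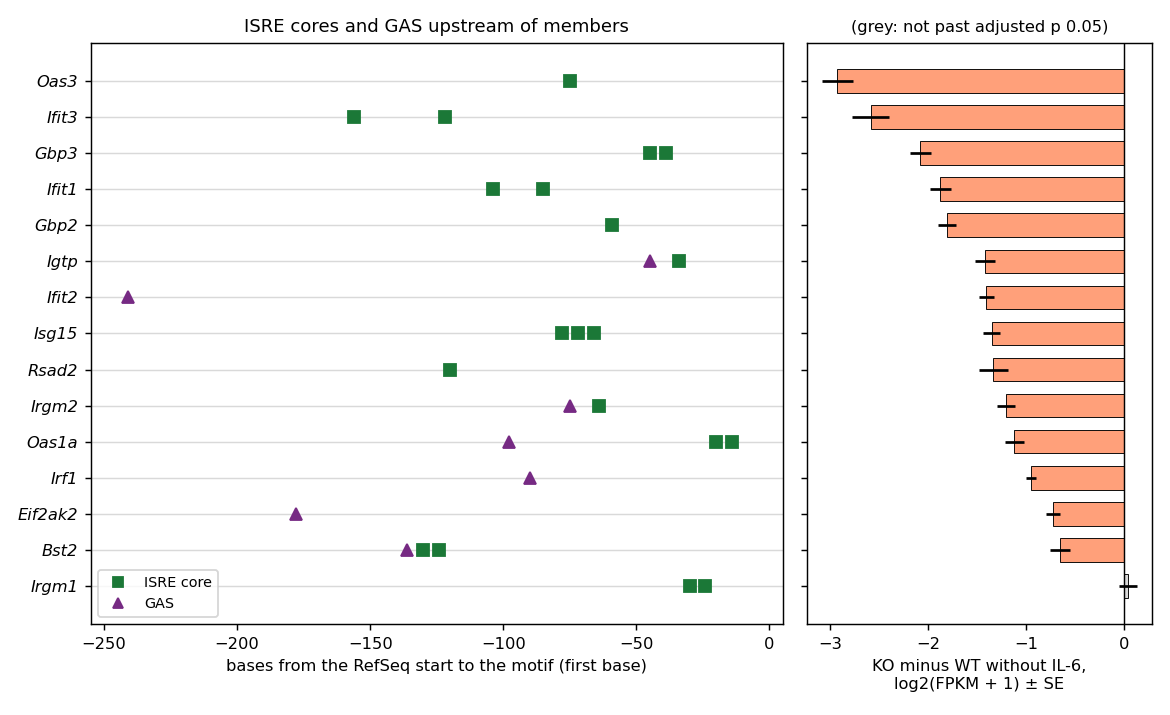
Left, the position of ISRE cores (squares) and GAS matches (triangles) as bases from the RefSeq start for the 15 genes with a match in the 250 bases before it. Right, the log2 difference between KO and WT cells without IL-6 with its standard error (2 libraries a group). All bars but that of Irgm1 point to lower levels in KO, and genes are sorted by that difference.

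The share of these genes that passed with IL-6 in WT cells was near that of all genes, and it depended on single libraries. In WT cells with IL-6 against those without, 2 of the 43 passed as higher (Irf1 and Gbp2) and 4 as lower (Irf7, Oas1a, Bst2 and Sp100), or 6 in all (14.0%), where 8.30% of all genes tested passed as higher, 7.41% as lower and 15.7% in either direction. With all libraries brought to equal total FPKM, 2 were higher and 7 lower, and the share of all calls that were higher moved to 34.8%, against 52.8% as deposited. Both libraries with IL-6 lay above both without for 4 of the 43 genes and below them for 21, against 27.5% and 28.8% of all genes. The median change of the 43 genes was -0.16, beside -0.00197 for all genes.

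Irf1 stood at 98.9 and 89.4 FPKM in WT libraries with IL-6 and 77.8 and 77.1 without, a rise of 0.28 ± 0.05 (adjusted p = 0.0147). Gbp2 stood at 210.3 and 177 FPKM with IL-6 and 140.0 and 145 without in WT cells, a rise of 0.43 ± 0.09 (adjusted p = 0.0181). For both genes each library with IL-6 lay above each library without. Bst2 stood at 945 and 742 FPKM with IL-6 and 1229 and 1169 without in WT cells (-0.52 ± 0.10, adjusted p = 0.0167). Irf7 fell to 175 and 136 FPKM with IL-6, against 214 and 199 without (-0.42 ± 0.11, adjusted p = 0.0461). Oas1a was at 79.6 and 63.1 FPKM with IL-6 and 90.4 and 91.7 without (-0.36 ± 0.10, adjusted p = 0.0464). Sp100, near the floor of 1 FPKM, was at 0.840 and 0.473 FPKM with IL-6 and 1.24 and 1.15 without (-0.41 ± 0.10, adjusted p = 0.0364). None of these 6 calls held in every alternative. Without either of the WT libraries that had no IL-6, 0 of the 43 genes passed, and without the first WT library with IL-6, 18 passed, all lower.

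The 2 WT libraries with IL-6 differed from each other in these genes. The second was below the first for 42 of the 43 genes, Ifi27 being the exception, with a median difference of -0.30, while 46.7% of all genes tested were lower in the second. Against the mean of the untreated WT libraries, 26 of the 43 genes were lower in the first (median -0.04) and 39 in the second (median -0.29). In KO cells with IL-6 the second library was below the first for 40 genes, with a median of -0.13 and 44.0% of all genes. Without IL-6 the second library was lower for 31 genes in KO and for 23 genes in WT cells. What sets these libraries apart was not tested.

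**Figure D4:**
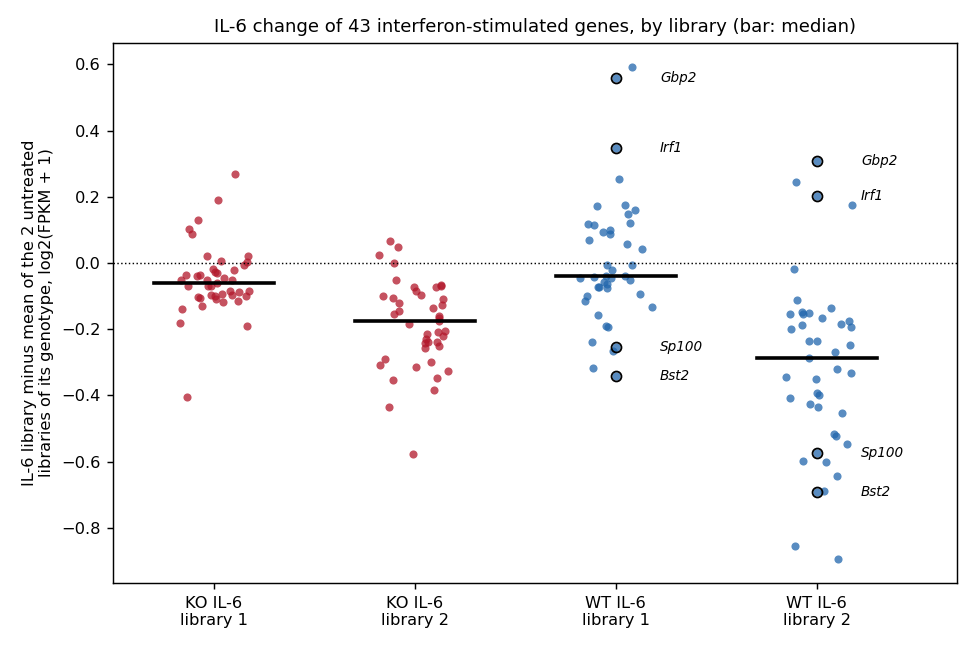
Change of each of the 43 genes in each library with IL-6 (x axis) from the mean of the 2 untreated libraries of the same genotype (y axis, log2 of FPKM + 1), with the median as a bar. The medians are -0.06 and -0.17 in KO and -0.04 and -0.29 in WT, and Gbp2 and Irf1 lie above 0 in both WT libraries.

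In KO cells IL-6 moved none of the 43 genes past the threshold (0 by limma, 2 at an unadjusted p below 0.05, as were 1025 of all 13693 genes), where 0.0219% of all genes tested passed, every one of them higher. Those 2 were Oasl1 and Isg15. Both libraries with IL-6 lay above both without for 1 gene and below them for 22, against 19.6% and 18.8% of all genes. The smallest adjusted p was 0.592, for Oasl1 (-0.27), and the median change of the 43 genes was -0.12. Irf1 was at 38.9 and 41.0 FPKM in KO libraries with IL-6 and 39.9 and 39.3 without (0.01 ± 0.05, adjusted p = 0.987), and the groups overlapped. Gbp2 was at 42.6 and 40.8 FPKM in KO libraries with IL-6 and 42.7 and 37.6 without (0.06 ± 0.09, adjusted p = 0.935), also with overlap.

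The test of the difference itself, the IL-6 change in KO minus that in WT, passed for 0 of the 43 genes by limma, with 5 at an unadjusted p below 0.05 (Irf1, Gbp2, Ifi27, Sp100 and Bst2), as were 2916 of all 13693 genes. In that test 6.06% of all genes passed after adjustment, 2.54% as higher and 3.52% as lower. Irf1 came nearest at -0.27 ± 0.08 (adjusted p = 0.0956), and Gbp2 was at -0.38 ± 0.13 (adjusted p = 0.141). Without the second WT library with IL-6, Irf1 passed at -0.34 (adjusted p = 0.0495), and without the first, Bst2 and Sp100 passed at 0.54 (adjusted p = 0.0264) and 0.53 (adjusted p = 0.0482). A p that misses the threshold does not show that the genotypes respond alike.

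The genes that make, receive and relay interferon were set beside the 43. None of 21 interferon genes reached 1 FPKM in 2 libraries. Ifnb1, interferon beta, was at 0.188 and 0.0849 FPKM in KO and 0.216 and 0.844 in WT libraries without IL-6. These stand for at most about 2.6 to 27.2 fragments, since the full transcript length was used, which overstates them. With IL-6 it was at 0.174 and 0.149 FPKM in KO and 0.972 and 0.524 in WT libraries. The KO libraries lay below the WT libraries at these few fragments, and no test was made. Without IL-6 the nearest KO and WT libraries, at 0.188 and 0.216 FPKM, stand for at most about 5.1 and 6.5 fragments. Among all genes tested 41.7% lay lower in KO without overlap in the absence of IL-6, and 41.9% in its presence.

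Of the 6 receptor chains, 3 were lower and 2 higher in untreated KO cells, and 4 were lower and 1 higher with IL-6. These are 83.3% in either direction in both conditions, of few genes, beside 71.0% and 71.7% of all genes tested. Ifnar1 was at 26.3 and 26.6 FPKM in KO and 35.4 and 34.4 in WT libraries without IL-6 (-0.39 ± 0.04, adjusted p = 0.000143). Ifngr1, of the interferon gamma receptor, differed by -0.56 ± 0.05 (adjusted p = 2.77e-05). The interferon lambda receptor Ifnlr1 was at 3.04 and 2.81 FPKM in KO and 0.185 and 0.144 in WT libraries without IL-6 (1.75 ± 0.08, adjusted p = 1.05e-06). Ifnar2 differed in its IL-6 change: it was at 54.0 and 49.5 FPKM with and 49.2 and 49.4 without IL-6 in KO, and at 69.4 and 64.7 with and 47.8 and 49.0 without in WT. The difference between these changes was -0.40 ± 0.08 (adjusted p = 0.0275).

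Of the 6 kinases and STAT factors, 2 were lower and 2 higher in untreated KO cells (66.7%, beside 71.0% of all genes). Stat2, the partner of Irf9, was at 58.8 and 58.0 FPKM in KO and 195 and 172 in WT libraries without IL-6 (-1.63 ± 0.09, adjusted p = 2.81e-06). Jak1 was at 34.7 and 34.4 FPKM in KO and 61.5 and 62.5 in WT libraries without IL-6 (-0.83 ± 0.04, adjusted p = 5.28e-07). Stat3, the main IL-6 factor, rose with IL-6 in WT by 0.62 ± 0.04 (adjusted p = 8.03e-05), while the IL-6 change in KO minus that in WT was -0.42 ± 0.05 (adjusted p = 0.00542).

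Of 16 sensors and adaptors listed, 14 reached the filter. Among these, 7 were lower and 2 higher in untreated KO cells (64.3% in either direction, beside 71.0% of all genes). With IL-6, 9 were lower and 2 higher (78.6%, beside 71.7%). Ddx58, the sensor RIG-I, was at 51.3 and 52.6 FPKM in KO and 121 and 119 in WT libraries without IL-6 (-1.19 ± 0.08, adjusted p = 4.9e-06). Tmem173, the adaptor STING, was singled out after its values were seen because its direction turned. It was at 55.3 and 62.6 FPKM in KO and 46.5 and 50.01 in WT libraries without IL-6 (0.28 ± 0.07, adjusted p = 0.0085). With IL-6 it was at 70.6 and 64.4 FPKM in KO and 91.7 and 91.7 in WT libraries (-0.44 ± 0.07, adjusted p = 0.000855). The difference of its IL-6 changes was -0.72 ± 0.10 (adjusted p = 0.00861). Tbk1, the kinase of Irf3, differed by -0.77 ± 0.05, and Cgas, the sensor of cytosolic DNA, by -0.81 ± 0.08. Of 6 other interferon regulatory factors and their binding partners that reached the filter, 4 were higher and 1 lower in untreated KO cells (83.3%, beside 71.0%). Irf5 was at 17.2 and 17.97 FPKM in KO and 3.02 and 2.98 in WT libraries without IL-6 (2.22 ± 0.09, adjusted p = 3.08e-07), and Irf3 rose by 0.91 ± 0.09 (adjusted p = 6.26e-05). Of 11 negative regulators, 7 were lower and 2 higher in untreated KO cells (81.8%, beside 71.0%). Socs1, an inhibitor of JAK kinases, was at 0.892 and 0.801 FPKM in KO and 4.97 and 5.44 in WT libraries without IL-6 (-1.75 ± 0.09, adjusted p = 1.9e-06). Socs3, which restrains gp130, rose with IL-6 in WT by 1.35 ± 0.06 (adjusted p = 2.87e-05), and the difference of its IL-6 changes was -0.80 ± 0.08 (adjusted p = 0.00277).

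**Figure D5:**
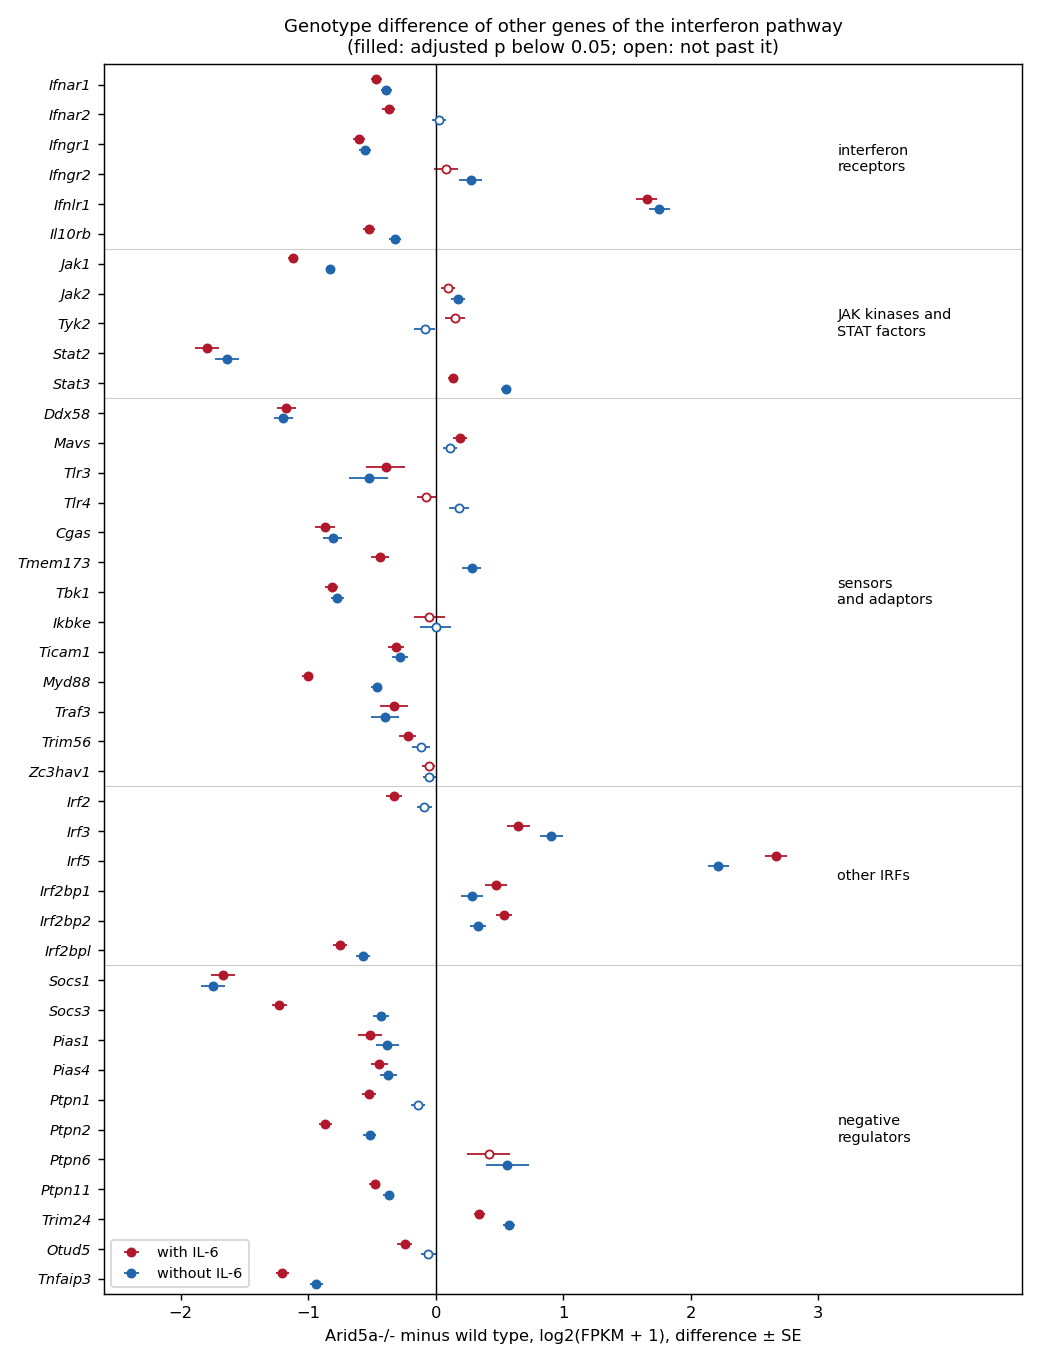
Log2 difference of FPKM + 1 between KO and WT cells (x axis, with standard error) for receptors, JAK and STAT genes, sensors and adaptors, other IRF genes and negative regulators that are reported here, with IL-6 in red and without in blue. Stat2 and Socs1 lie farthest left without IL-6, at -1.63 and -1.75, and Irf5 farthest right at 2.22.

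A further 70 interferon-induced genes that are not among the 43 were counted for comparison, of which 62 reached the filter. Like the 43, they were chosen with earlier results of these data known, so they are no independent check. In untreated KO cells 42 of the 62 were lower and 12 higher, with a median change of -0.70, and with IL-6 43 were lower and 10 higher, with a median of -0.71. Among all genes 34.5% were lower and 36.4% higher without IL-6, and 34.8% lower and 36.9% higher with it. The chemokine Ccl5 was at 27.1 and 31.8 FPKM in KO and 596 and 582 in WT libraries without IL-6 (-4.28 ± 0.08, adjusted p = 6.97e-09). Ifitm1, which blocks viral entry, was at 0.253 and 0.314 FPKM in KO and 115 and 115 in WT libraries without IL-6 (-6.50 ± 0.17, adjusted p = 4.47e-08), and its relative Ifitm2 differed by -1.45 ± 0.04 (adjusted p = 3.16e-08). In the other direction, Plscr2 was at 50.3 and 51.5 FPKM in KO and 18.3 and 17.3 in WT libraries without IL-6 (1.46 ± 0.04, adjusted p = 6.41e-08). With IL-6 in WT cells 3 of the 62 were higher and 7 lower (16.1%, beside 15.7% of all genes), and in KO cells 0 passed by limma, with 4 at an unadjusted p below 0.05.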

How the data were processed

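RNA from 8 libraries of mouse embryonic fibroblasts, 4 groups of 2, was isolated (RNeasy) and sequenced after TruSeq stranded mRNA preparation, per the labels' protocols. HISAT2, Cufflinks 2.2.1 and GRCm38.p6 are named in the submitters' processing notes, and the gene annotation and the use of strand in counting are not given in the sources used here. The deposited values are FPKM per transcript, as the authors made them, so fragment counts were not used for tests. The 142869 transcripts were summed to 55358 genes by the name before the final hyphen and number, and 97.11% of transcript names were found in GENCODE M21. Genes with at least 1 FPKM in at least 2 libraries (13693) were tested as log2(FPKM + 1) with limma 3.58.1 in R 4.3.3, 1 coefficient for each group, all 8 libraries in the fit (residual degrees of freedom, 4), variance moderation by intensity, and p-values adjusted by Benjamini-Hochberg over these genes. The 5 comparisons were IL-6 in each genotype, genotype with and without IL-6, and the difference of the IL-6 changes. No libraries were identical.

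The 43 genes and the other lists were chosen with earlier results of these data known, and the sex-linked list and Arid5a were added after the data were seen. Values in every library are given for the Irf genes, for up to 8 genes with the largest called rise and 8 with the largest fall in each comparison, and, of each other list, for up to 5 called genes with the smallest p. Exceptions are named as such in the text or stand as examples (Isg15, Irgm1, Parp12, Mx2, Ifit3b). Depth was read from low values. Depth and mean fragment length were chosen in each library so that the most low values lay within 0.1 of a whole fragment. That share, the quantity maximized, was 92.2% to 94.4% per library and is no separate check of the depth. The alternatives were other normalizations, pseudocounts and filters, no trend, a replicate block, only the groups compared, and each library left out. Some genes of the other lists are not reported here, though the counts include them. Promoter windows came from RefSeq (GRCm38.p6).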

Additional observations from a re-analysis of the deposited data

Results flagged for a closer look

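None of the 43 interferon-stimulated genes stood out by the test of the difference between the IL-6 changes, but 10 other genes of the interferon pathway that are reported here did, all lower (limma, IL-6 change in KO minus that in WT, 2 libraries a group). Among all genes tested 6.06% passed, 3.52% as lower. With unreported genes counted, 1 of 6 receptors, 2 of 6 kinases and STAT factors and 3 of 11 negative regulators passed. Of 14 sensors and adaptors 3 passed, 1 of them higher. Of 6 other interferon regulatory factors and binding partners 0 passed, and of 62 other interferon-induced genes 2 passed (3.23%). In WT cells each library with IL-6 of Socs3 (60.3 and 57.5 FPKM) lay above each without (23.5 and 21.5), while KO cells held 23.9 and 25.4 FPKM with IL-6 and 16.0 and 16.9 without, and the difference was -0.80 ± 0.08 (adjusted p = 0.00277). Tmem173 differed by -0.72 ± 0.10 (adjusted p = 0.00861), Myd88, the adaptor of Toll-like receptors, by -0.54 ± 0.06 (adjusted p = 0.00322), and Ifitm2 by -0.49 ± 0.05 (adjusted p = 0.00264). Stat3 differed by -0.42 ± 0.05 (adjusted p = 0.00542), Ifnar2 by -0.40 ± 0.08 (adjusted p = 0.0275) and Jak1 by -0.29 ± 0.05 (adjusted p = 0.0177). The phosphatases Ptpn1 and Ptpn2 differed by -0.38 ± 0.08 (adjusted p = 0.0343) and -0.35 ± 0.07 (adjusted p = 0.0321), and Plscr1 by -0.31 ± 0.06 (adjusted p = 0.0316). Myd88, Ptpn1, Ptpn2 and Plscr1 were picked here for this difference, after their values were seen.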

How the results depend on the processing

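The genotype differences moved little: over 17 alternatives 39 to 41 of the 43 genes passed without IL-6 and 38 to 42 with IL-6, and 39 of the 40 calls without IL-6 (all but Herc6) and 38 of the 42 with IL-6 (all but Bst2, Ifi44, Irgm1 and Parp12) held in each of them. The IL-6 count in WT cells did not: against 6 genes, 1 passed with no filter, 10 with the replicate number as a block (2 higher, 8 lower) and 0 with only the groups compared, and leaving out 1 library gave 0 to 18. It was 0 without either WT library that had no IL-6, 18 without the first WT library with IL-6, and 3 without the second or without any 1 KO library. For the difference of the IL-6 changes, with 0 genes passing, leaving out 1 library gave 0 to 2. IL-6 in KO gave 0 in all 17. The replicate block is only a setting, since same-numbered libraries did not deviate together over all 13693 genes (correlations of -0.0973 to 0.0549). Among the 43 genes, however, the second library was the lower for 42 in WT and 40 in KO with IL-6. Without IL-6 it was the lower for 31 in KO and 23 in WT. No direction reversed among the calls. The cause of these shifts was not tested. With 2 libraries a group, leaving 1 out assumes that the lone library varies like the other groups, and levels below 1 FPKM rest on few fragments.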
